A study of Mus musculus with 8 samples.

Results

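The collagen chain genes are the rows of the expression table whose symbol has the form Col, a number, a and a number. The rule found 36 of 18671 genes. They fall into 7 fibrillar chains, 8 basement membrane chains and 21 other chains. The other chains comprise 6 chains of beaded filaments, 7 fibril-associated chains, 3 transmembrane chains and 5 chains of short-chain networks, anchoring fibrils or further types. A further 9 chains of the class lists, among them Col1a2 and Col3a1, were not analysed here.

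The RNA of 8 samples of BMEL cells was sequenced. BMEL is a line of bipotential mouse embryonic liver cells able to turn into hepatocytes or cholangiocytes. In 4 samples, called GRHL2 below, the cells had been transfected with a plasmid that carries the human GRHL2 cDNA fused to a flag tag under the EF1A promoter, together with a cistron for enhanced green fluorescent protein. The other 4 samples, called control, had received the pcDNA3 vector. All cells were grown on collagen-coated dishes and RNA was harvested 48 h after transfection, so every sample shares the line, the coating and the transfection. The plasmids differ by more than GRHL2, and the share of cells that took up a plasmid is not given in the sources used here. Samples are numbered 1 to 4 in each group, and the study describes them as independent biological replicates of 1 line.

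Collagens are the main structural proteins of the extracellular matrix. Glycine recurs at a fixed interval along their chains, which lets the chains wind around each other into rods. Fibrillar chains assemble into the cables of connective tissue, whereas type IV chains form the sheet-like network of basement membranes. In liver, bile ducts rest on a basement membrane, and stellate cells and portal fibroblasts are known as the main source of fibrillar collagen in fibrosis. The comparison asks which collagen chains differ between BMEL cells with ectopic GRHL2, a transcription factor of epithelial cells, and BMEL cells with the control vector.

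The mouse Grhl2 row was read first, as a check of the labels. Its values were 4.68, 4.57, 4.42 and 4.44 in control replicates 1 to 4, and 6.30, 6.96, 5.65 and 6.05 in GRHL2 replicates 1 to 4. No GRHL2 sample reached down to the controls, with a difference of 1.71 ± 0.22 (standard error) and an adjusted p of 0.00100 in limma. The plasmid carries the human cDNA, whereas by the study's methods reads were aligned to the mouse genome. Reads of the plasmid and of the mouse gene were not told apart, so the difference does not give the amount of ectopic GRHL2. Values are on a log2 scale and scaled by transcript length, so a difference of 1 is a fold of 2. By the study's methods they derive from DESeq2's rlog transformation, which pulls the samples of a gene with few reads towards each other and so understates its differences. Depth is not known for these samples. A gene is called here when its adjusted p, over all 18671 genes, is under 0.05.

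Of the 36 collagen chains, 7 were called higher with GRHL2 and 3 lower, against 10.5% of all genes called higher and 5.91% called lower. This is 19.4% and 8.33% of the chains, or 27.8% in either direction against 16.4% of all genes. The chains that rose were Col2a1, Col5a1, Col18a1, Col17a1, Col16a1, Col23a1 and Col6a4, and those that fell were Col20a1, Col12a1 and Col11a2. The median difference over the chains was 0.04, against 0.01 over all genes, and the differences ran from -0.41 to 0.81. Thus Col2a1 with a fold of 1.76 and Col20a1 with a fold of 0.754 marked the ends of the range.

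The groups did not overlap in 11 chains, 8 with all GRHL2 samples above and 3 with all below. Over all genes this held for 14.3% above, 9.47% below and 23.8% in either direction. With the replicate number as a block, 13 chains were called higher and 4 lower, or 47.2%, against 18.2% of all genes higher, 13.9% lower and 32.1% in either direction. The block added Col1a1, Col4a4, Col4a5, Col6a3, Col6a5 and Col14a1 among the higher chains and Col15a1 among the lower ones, and it kept all 10 calls. When each sample was shifted to the same upper quartile, 12 chains were higher and Col20a1 alone was lower, against 16.4% and 5.21% of all genes. At an equal sum of the linear values 12 were again higher and Col20a1 lower, against 15.6% and 4.65%. The first scaling moved the share of higher calls among all called genes from 63.9% to 75.9%, and the equal sum moved it to 77%.

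**Figure D1:**
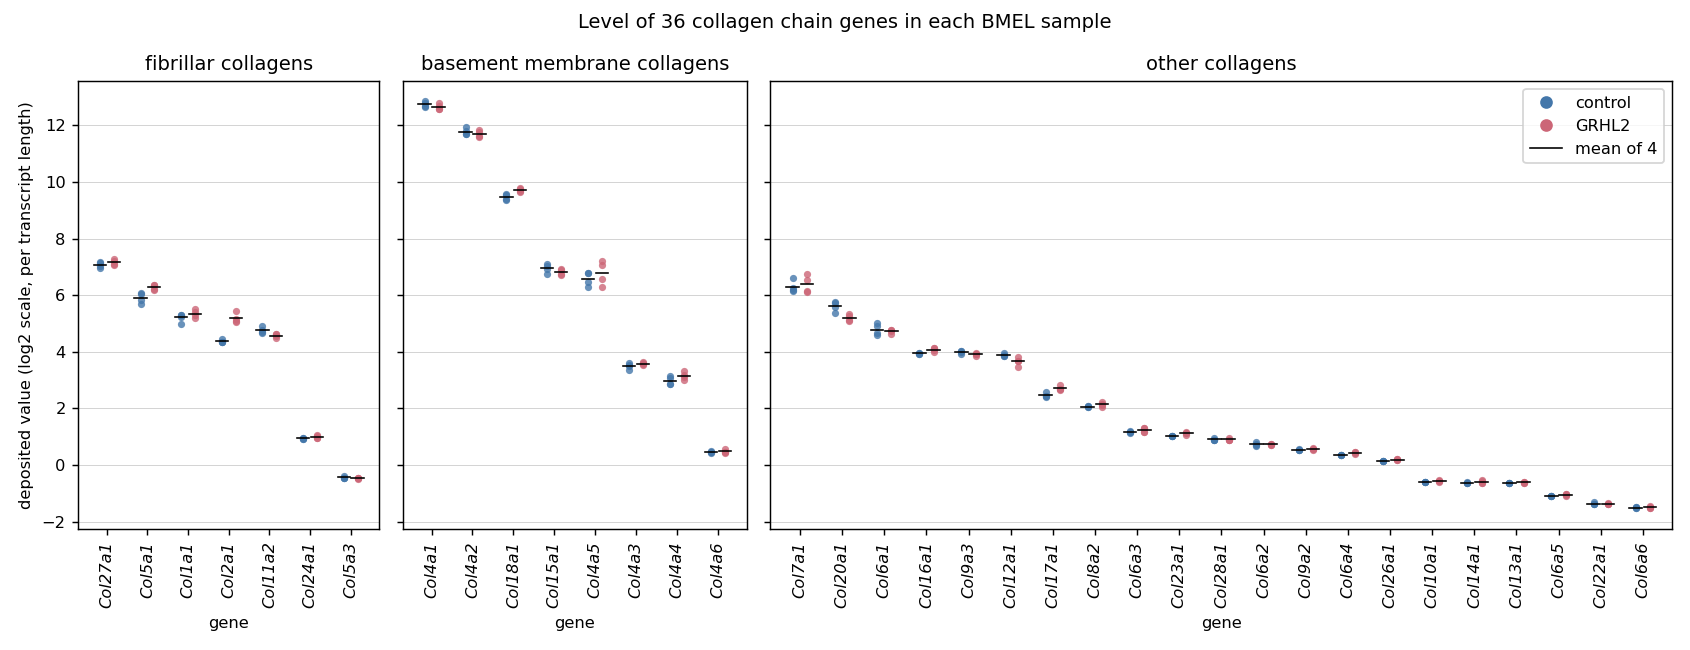
Deposited log2 value per transcript length (vertical axis) of the 36 collagen chain genes in each of the 4 control and 4 GRHL2 samples, with points for samples and bars for group means. Chains are ordered by mean within each class, and levels span from -1.50 for Col6a6 to 12.70 for Col4a1.

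The chains differed far more in level than between groups, and the classes held high and low chains alike. On the per-length scale Col4a1 was the most abundant chain with a mean of 12.70 over the 8 samples, and 98.8% of all genes lay below it. Col4a2 with 11.75 and Col18a1 with 9.60 followed. By the study's methods the length is the mean over a gene's annotated transcripts. For Col4a1 this mean is 2.14 kb in GENCODE, although its longest coding sequence has 5007 bases. Ranks between genes therefore depend on the length used. The best expressed fibrillar chain was Col27a1 with 7.12, which lies above 55.6% of all genes. The median chain had a level of 2.83, whereas the median gene had 6.45. A mean of 3 split the chains into 18 above and 18 below, and 7 chains had a mean under 0.

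**Figure D2:**
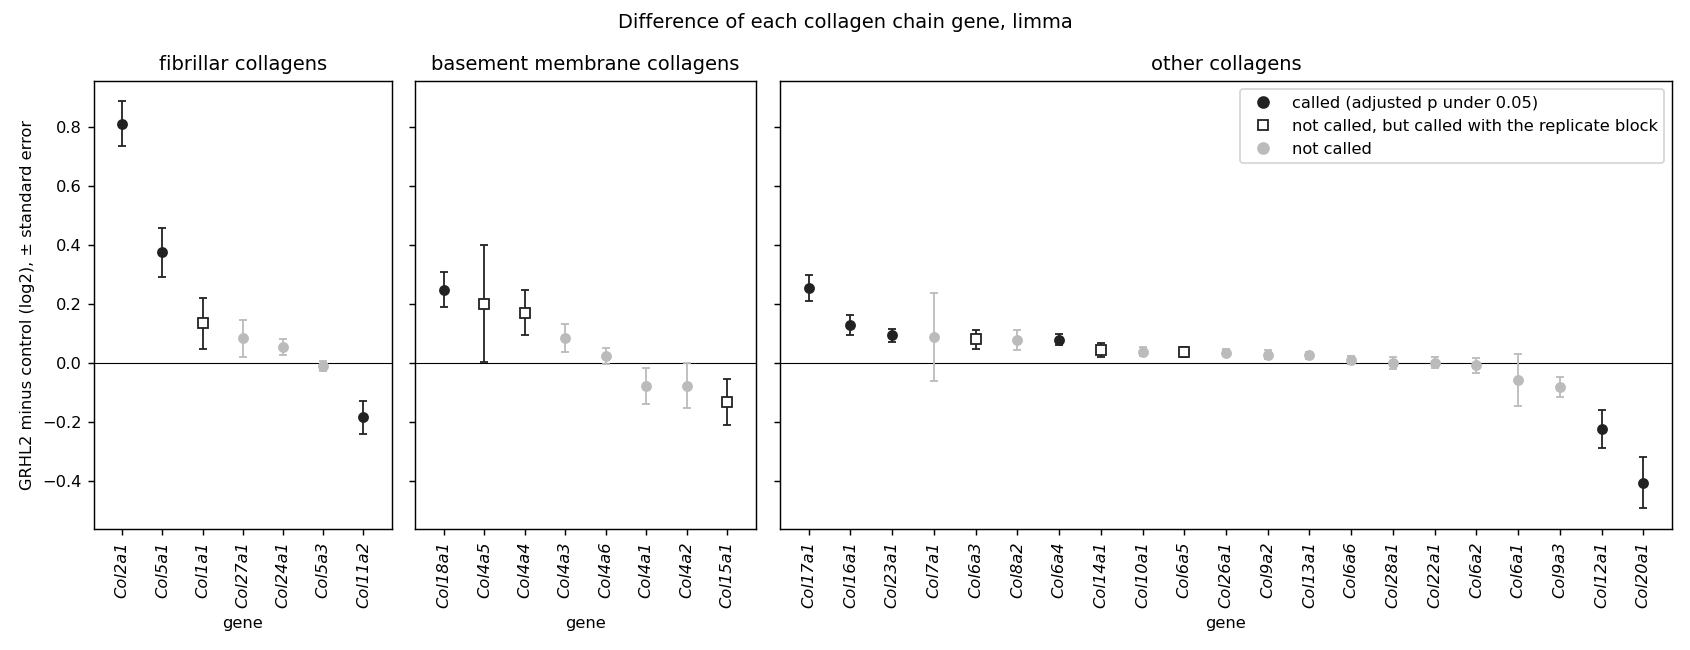
Difference between group means (GRHL2 minus control, log2) with its limma standard error for each of the 36 chains, ordered within classes. Filled black points mark the 10 called chains, open squares the 7 further chains called once the replicate block was added and grey points the rest, and Col2a1 stands highest at 0.81 and Col20a1 lowest at -0.41.

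Among the 7 fibrillar chains, 2 rose, 1 fell and 4 were not called, with a median difference of 0.08. Col2a1, the chain of type II collagen known from cartilage, changed most of all collagen chains. It read 4.34, 4.45, 4.35 and 4.35 in the control samples and 5.15, 5.43, 5.08 and 5.07 in the GRHL2 samples. The 4 control values were close together, and every GRHL2 value was well above them. The difference was 0.81 ± 0.076 (standard error) with an adjusted p of 0.000206 in limma, and it was the only chain called beyond a difference of 0.2 (adjusted p 0.00203), where 1.15% of all genes were called higher. Col2a1 (ENSMUSG00000022483) lies at chr15:97975602-98004695 on the minus strand of GRCm38, the build of all positions given here. Of the 468 genes with a similar read-scale level, the value before division by length, 97.9% had a smaller difference.

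Col5a1, a chain of type V collagen that is built into type I fibrils and limits their width, was the other fibrillar chain that rose. Its control values were 5.70, 6.03, 5.85 and 6.08 and its GRHL2 values 6.20, 6.37, 6.22 and 6.37. Within each group replicates 2 and 4 were higher than replicates 1 and 3, and the groups still did not overlap. The means of 5.92 ± 0.17 and 6.29 ± 0.092 (SD, n = 4) differed by 0.38, with a standard error of 0.083, a fold of 1.30 and an adjusted p of 0.0138 in limma. The gene (ENSMUSG00000026837) spans chr2:27886425-28039514 on the plus strand. Its exons share 113 bases or fewer with each of the opposite-strand genes Gm13372 and 2810430I11Rik. Within these shared bases the unstranded counting cannot tell which gene a read comes from. The 250 bases before its start, rich in G and C at 76.4%, are shown because Col5a1 is a called fibrillar chain; capitals mark the GC box GGGCGG on either strand (RefSeq, GRCm38.p6, chr2:27886175-27886424, plus strand).
Col5a1: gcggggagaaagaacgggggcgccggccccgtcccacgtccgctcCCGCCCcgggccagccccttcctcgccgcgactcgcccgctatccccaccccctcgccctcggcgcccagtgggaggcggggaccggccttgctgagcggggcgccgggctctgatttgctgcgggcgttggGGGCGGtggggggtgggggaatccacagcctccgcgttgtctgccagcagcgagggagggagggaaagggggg

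Col11a2, a chain of type XI collagen at the core of cartilage fibrils, moved the opposite way. The gene lies at chr17:34039437-34066685. It read 4.71, 4.90, 4.66 and 4.76 in control samples and 4.55, 4.49, 4.62 and 4.62 with GRHL2. The groups lay next to each other without overlap, control replicate 3 being the closest to the GRHL2 samples. The difference of -0.18 ± 0.055 (standard error) had an adjusted p of 0.0477. This call was kept only when control replicate 3 was left out and was lost without each of the other 7 samples, with an adjusted p of up to 0.104. It was also lost under the equal upper quartile (adjusted p 0.0504) and equal sum (adjusted p 0.0899).

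Col1a1, a chain of type I collagen, the most common fibril of connective tissue, was not called. Its values were 5.24, 4.98, 5.32 and 5.32 in control samples and 5.31, 5.18, 5.41 and 5.50 with GRHL2. The groups overlapped, yet in each pair of the same number the GRHL2 sample was the higher. Its difference of 0.13 ± 0.087 (standard error) had an adjusted p of 0.333, and of 0.0281 with the replicate block. Col27a1, the fibrillar chain with the highest level, read 6.97 to 7.18 in control and 7.08 to 7.27 in GRHL2 samples, a difference of 0.08 with an adjusted p of 0.399. Col24a1 and Col5a3, the other fibrillar chains, had means of 0.97 and -0.44 and were not called.

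In the basement membrane class 1 chain rose, none fell and 7 were not called, Col18a1 being the exception. The median difference of the class was 0.05. None of the 6 type IV chains was called, and with the block 2 of them were higher.

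Col18a1 encodes a heparan sulfate-bearing collagen of epithelial and vascular basement membranes, the end of which is released as endostatin. It read 9.38, 9.40, 9.56 and 9.57 in the control samples and 9.65, 9.69, 9.76 and 9.80 in the GRHL2 samples. In both groups replicates 3 and 4 were above replicates 1 and 2, and the GRHL2 sample exceeded its control by 0.20 to 0.29 in all 4 pairs. The means of 9.48 ± 0.10 and 9.73 ± 0.069 (SD, n = 4) differed by 0.25, with a standard error of 0.060, a fold of 1.19 and an adjusted p of 0.0207 in limma. Col18a1 sits at a high read-scale level, where rises are few: of 644 genes of similar level 2.64% were called higher and 1.55% had a larger difference. The call was lost without control replicate 1 (adjusted p 0.0648), GRHL2 replicate 3 (0.0549) or GRHL2 replicate 4 (0.0565), with differences between 0.22 and 0.24.

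Col18a1 (ENSMUSG00000001435) spans chr10:77052178-77166548 on the minus strand, and RefSeq gives it a pair of starts. The values sum over both and cannot say which start was used. The 232 bases upstream of the outer start as GENCODE gives it are shown as those of the basement membrane chain that rose; capitals mark GGGCGG and CCAAT on either strand (RefSeq, GRCm38.p6, chr10:77166549-77166780, minus strand). They hold 3 GC boxes and 1 CCAAT box. The 250 bases before the inner start, at chr10:77113706-77113955, hold neither; 241 of them lie in an exon of Col18a1 in GENCODE.
Col18a1, outer start: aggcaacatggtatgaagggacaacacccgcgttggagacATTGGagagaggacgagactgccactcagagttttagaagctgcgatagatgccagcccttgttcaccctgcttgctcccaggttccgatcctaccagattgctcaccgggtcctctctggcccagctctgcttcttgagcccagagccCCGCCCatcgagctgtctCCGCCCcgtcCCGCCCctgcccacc

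Col4a1 and Col4a2 encode the chains that together form the type IV network of nearly all basement membranes. Col4a1 read 12.79, 12.85, 12.68 and 12.66 in control samples and 12.80, 12.70, 12.59 and 12.58 with GRHL2. Col4a2 read 11.82, 11.96, 11.68 and 11.68 against 11.83, 11.78, 11.63 and 11.60. In both genes the groups overlapped and replicates 1 and 2 were above replicates 3 and 4. The difference was -0.08 for each, with standard errors of 0.062 and 0.076 and adjusted p of 0.438 and 0.535, and neither was called with the block (adjusted p 0.0963 and 0.137). The genes stand head to head on chromosome 8 and overlap by 22 bases, which is 0.332% of the exon length of one and less of the other.

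Type IV chains of more specialised membranes, such as those of the kidney filter, were less abundant. Col4a5 read 6.46, 6.29, 6.80 and 6.80 in control samples and 6.59, 6.28, 7.06 and 7.21 with GRHL2. The spread within its groups was the widest of all chains, with SDs of 0.26 and 0.43, and its difference of 0.20 had an adjusted p of 0.539. With the block the adjusted p was 0.0393, although replicate 2 was 0.01 lower with GRHL2. Its head-to-head neighbour Col4a6 had a mean of 0.47 against 6.68 for Col4a5, with a difference of 0.02 and an adjusted p of 0.621.

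Col4a4 and Col4a3 form another head-to-head pair, at chr1:82448423-82586849 and chr1:82586921-82722059, with 71 bases between their ends. Exons of Col4a3 share 563 bases, 5.65%, with the opposite-strand gene C430014B12Rik, which has its own row of values. Col4a4 read 3.06, 3.14, 2.88 and 2.87 in control samples and 3.18, 3.33, 3.02 and 3.11 with GRHL2. Each GRHL2 sample was above the control of its number, while the groups overlapped. The difference was 0.17 ± 0.076 (standard error) with an adjusted p of 0.161, and of 0.00291 with the block. Col4a3 read 3.37 to 3.61 in control and 3.55 to 3.63 in GRHL2 samples, and its difference of 0.08 was not called either way (adjusted p 0.262, and 0.141 with the block). The stretch between both genes is shown because it lies between their annotated starts (RefSeq, GRCm38.p6, chr1:82586850-82586920, minus strand, so read towards Col4a4); it has 69% G and C, and no capitals appear since neither GGGCGG nor CCAAT occurs on either strand.
Col4a3 to Col4a4: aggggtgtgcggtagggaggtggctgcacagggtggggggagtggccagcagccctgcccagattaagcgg

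Col15a1, a relative of Col18a1 at the rim of basement membranes, read 6.76, 6.93, 7.10 and 7.02 in control samples and 6.72, 6.74, 6.89 and 6.93 with GRHL2. The GRHL2 sample was the lower in each pair, and the groups overlapped. Its difference of -0.13 ± 0.078 (standard error) had an adjusted p of 0.277, and of 0.0408 with the block, so that the called directions of Col15a1 and Col18a1 under the block were opposite.

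**Figure D3:**
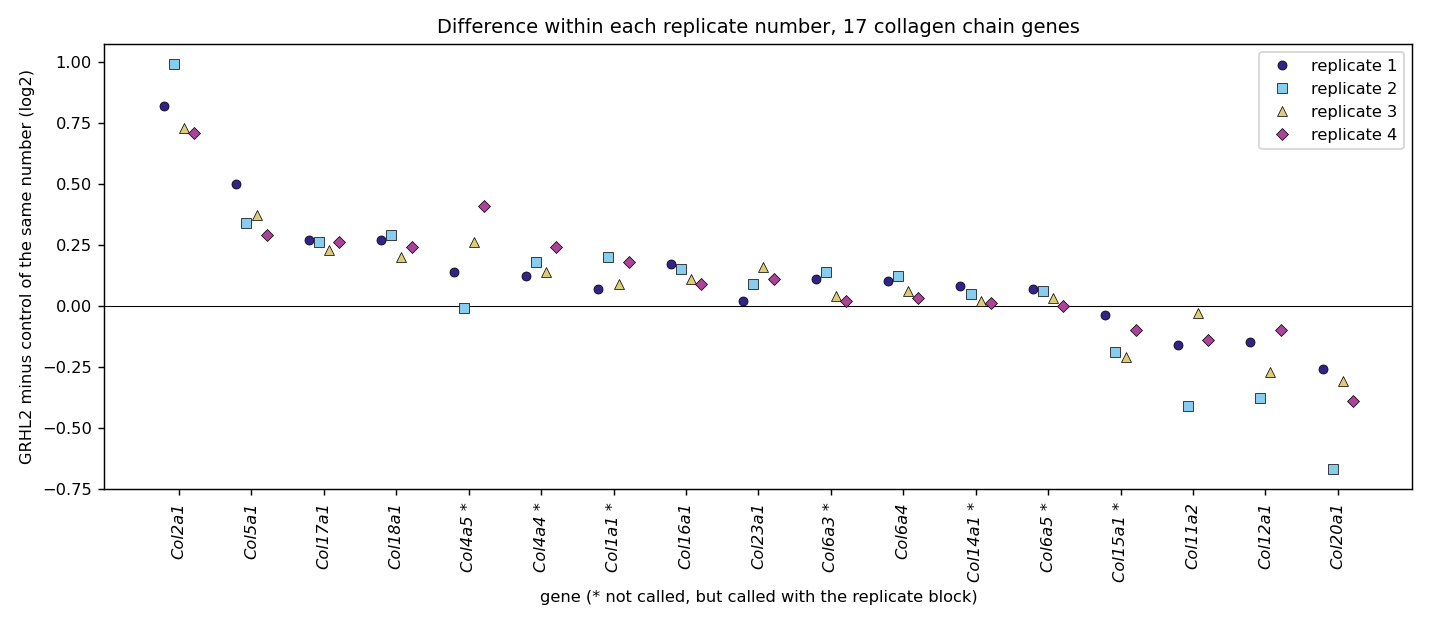
Difference between the GRHL2 and control sample of the same replicate number (vertical axis, log2) for the 17 chains called with the replicate block, with a symbol for each number and a star for the 7 chains that were not called without it. All 4 numbers lie on the same side of 0 for the 10 called chains, and Col4a5 has replicate 2 at -0.01.

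The plot of differences by replicate number shows each pair apart. Over all 36 chains, 17 were higher and 5 lower in all 4 pairs, against 27.3% and 21.3% of all genes. Col17a1 differed by 0.27, 0.26, 0.23 and 0.26 for replicates 1 to 4. Replicate 2 had the largest difference in Col2a1 with 0.99, in Col20a1 with -0.67, in Col11a2 with -0.41 and in Col12a1 with -0.38. It did not in Col5a1, where replicate 1 led with 0.50.

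The other collagens held 4 chains that rose, 2 that fell and 15 that were not called. Their median level of 0.91 was the lowest of the classes, against 4.78 for fibrillar and 6.79 for basement membrane chains.

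Of the 3 transmembrane chains 2 rose. Col17a1 encodes the collagen of hemidesmosomes, the rivets by which epithelial cells hold on to the basement membrane. It read 2.43, 2.57, 2.45 and 2.41 in control samples and 2.70, 2.82, 2.69 and 2.66 with GRHL2, so that each GRHL2 sample was higher than each control. The difference was 0.25 ± 0.044 (standard error), a fold of 1.19 with an adjusted p of 0.00418 in limma, and it was called with each sample left out. The gene (ENSMUSG00000025064) lies at chr19:47646344-47692094 on the minus strand. RefSeq places the start 52 bases inside the first GENCODE exon, so only the 198 bases upstream of that exon are shown, as those of the hemidesmosome chain that rose; no capitals appear since neither GGGCGG nor CCAAT occurs on either strand (RefSeq, GRCm38.p6, chr19:47692095-47692292, minus strand).
Col17a1: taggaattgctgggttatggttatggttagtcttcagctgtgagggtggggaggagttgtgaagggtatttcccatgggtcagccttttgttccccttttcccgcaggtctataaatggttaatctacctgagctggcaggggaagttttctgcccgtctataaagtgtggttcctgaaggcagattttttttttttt

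Col23a1, the other transmembrane chain that rose (chr11:51289920-51583918), had a low read-scale level of 2.71. Its control values were 1.04, 1.03, 1.02 and 1.03 and its GRHL2 values 1.06, 1.12, 1.18 and 1.14. The difference of 0.09 ± 0.023 (standard error) had an adjusted p of 0.0202, which was 0.0540 without control replicate 3. Col13a1, the remaining transmembrane chain, had a mean of -0.62 and was not called.

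Among the fibril-associated collagens, which decorate fibrils without forming them, 2 chains fell and 1 rose. Col20a1, a type XX chain of this family, fell most. Its control values were 5.37, 5.75, 5.57 and 5.71 and its GRHL2 values 5.11, 5.09, 5.26 and 5.33. All GRHL2 samples were below all control samples, by the least in replicate 1 and the most in replicate 2. The means of 5.60 ± 0.17 and 5.20 ± 0.12 (SD, n = 4) differed by -0.41, with a standard error of 0.087 and an adjusted p of 0.0118 in limma. The call held with each sample left out and under both scalings. Of 549 genes with a similar read-scale level, 0.729% had a lower difference. Col20a1 (ENSMUSG00000016356) lies at chr2:180986535-181018363 on the plus strand, and 79 bases of its exons, 1.54%, are shared with BX649560.1. The 250 bases before its start, which lie in an exon of BX649560.1, are shown as those of the chain that fell most; they hold no GC box and no CCAAT box and 49.2% G and C (RefSeq, GRCm38.p6, chr2:180986285-180986534, plus strand).
Col20a1: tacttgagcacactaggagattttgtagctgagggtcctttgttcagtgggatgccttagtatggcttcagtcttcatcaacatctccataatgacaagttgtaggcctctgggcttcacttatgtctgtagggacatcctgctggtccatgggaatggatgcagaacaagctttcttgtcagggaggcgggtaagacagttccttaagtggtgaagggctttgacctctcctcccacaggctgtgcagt

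Col12a1, the type XII chain that binds to type I fibrils (chr9:79598991-79718831), also fell. It read 3.84, 3.84, 3.95 and 3.90 in control samples and 3.69, 3.46, 3.68 and 3.81 with GRHL2, with GRHL2 replicate 2 the lowest and replicate 4 close to the controls. The difference of -0.22 ± 0.065 (standard error) had an adjusted p of 0.0424. The call was kept only without GRHL2 replicate 2 or GRHL2 replicate 4 and was lost without control replicates 1, 2, 3 or 4 or GRHL2 replicates 1 or 3, with an adjusted p between 0.0664 and 0.103. Under the equal upper quartile its adjusted p was 0.0514, and under the equal sum 0.0668.

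Col16a1, a fibril-associated chain of type XVI collagen (chr4:130047840-130099283), rose by little. It read 3.95, 3.97, 3.94 and 3.92 in control samples and 4.12, 4.12, 4.05 and 4.01 with GRHL2, without overlap. The difference of 0.13 ± 0.034 (standard error) had an adjusted p of 0.0280. Without control replicates 1, 3 or 4 or GRHL2 replicates 1 or 2 the adjusted p was between 0.0563 and 0.0748. Of 530 genes with a similar read-scale level 24.2% had a larger difference, so Col16a1 did not stand out by size.

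Type VI collagen forms beaded filaments around cells, and its genes lie in a pair of clusters, with Col6a3 apart from both. Only Col6a4 of its 6 chains, at chr9:105989454-106096783, was called. It read 0.36, 0.36, 0.37 and 0.35 in control samples and 0.46, 0.47, 0.42 and 0.39 with GRHL2, a difference of 0.08 ± 0.018 (standard error) with an adjusted p of 0.0166. The control values were nearly equal, at a read-scale level of 1.83, where the rlog leaves little room between samples. Its same-strand neighbours Col6a5 and Col6a6, with differences of 0.04 and 0.01, were not called. With the block Col6a5 was called (adjusted p 0.0421), as it was without GRHL2 replicate 4 (0.0329), at equal upper quartiles (0.0348) and at an equal sum (0.00816). Exons of Col6a4 share 162 bases or fewer with each of Gm47575 and Gm36993.

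Col6a1, the best expressed type VI chain, read 4.65, 4.60, 4.90 and 5.02 in control samples and 4.63, 4.76, 4.75 and 4.79 with GRHL2. The GRHL2 values lay within the range of the controls, and the difference of -0.06 had an adjusted p of 0.702 and was 0.02 without control replicate 4. Col6a2, its neighbour on the same strand of chromosome 10, had a mean of 0.73 against 4.76 for Col6a1, with a difference of -0.01 that was above 0 under the equal upper quartile and equal sum. Col6a3, at 1.20, was not called (adjusted p 0.113), but it was with the block (0.0297), at equal upper quartiles (0.0498) and at an equal sum (0.0238). The fibril-associated chain Col14a1, at -0.60, had an adjusted p of 0.259, and of 0.0369 with the block.

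Col7a1, which forms the anchoring fibrils that tie the basement membrane to the tissue below, was the best expressed of the other collagens with a mean of 6.35. It read 6.19, 6.61, 6.15 and 6.27 in control samples and 6.54, 6.76, 6.15 and 6.13 with GRHL2. The pairs did not move together: replicates 1 and 2 were higher by 0.35 and 0.15, replicate 3 did not move and replicate 4 was lower by 0.14. Its adjusted p was 0.736, and 0.381 with the block. The 10 remaining chains, Col24a1, Col5a3 and Col13a1 among them, are those that the naming rule left. That rule takes every chain called without or with the block, so their lack of a call follows from it. Their differences ran from -0.08 to 0.08. Col26a1, with a mean level of 0.18 and a difference of 0.04, was the uncalled chain whose groups did not overlap (adjusted p 0.0712), and it is named after its values were seen.

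**Figure D4:**
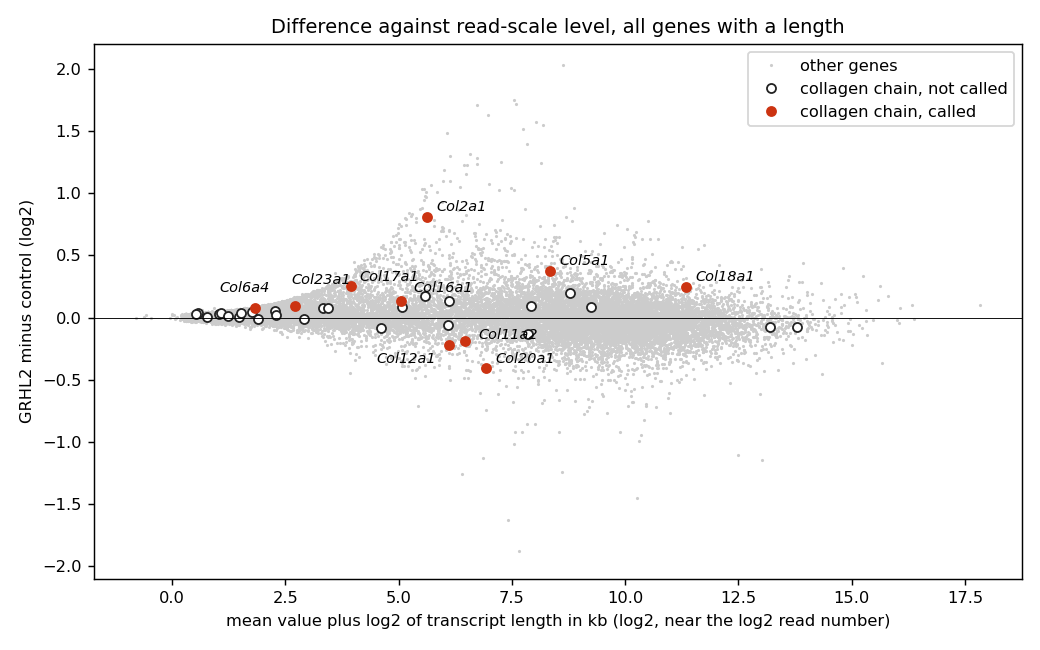
Difference between group means (GRHL2 minus control, log2) against the read-scale level, which is the mean value plus the log2 of the mean transcript length in kb, for all genes with a length. Filled red points are the 10 called collagen chains and open points the other 26; the cloud narrows to 0 at the left, where Col6a4 and Col23a1 lie.

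The plot of differences against read-scale level shows what the transformation allows. Adding back the log2 transcript length gives a value near the log2 read number, with 1% of genes below 0.33. Of the 36 chains 15 had a read-scale level under 3, and 2 of these, Col6a4 and Col23a1, were called higher. In that range 526 of all 4630 genes were called higher and 33 lower, and the differences of all of them lay between -0.17 and 0.19. The 21 chains at or above 3 held the other 5 rises and the 3 falls. For the chains in the low range a difference near 0 therefore shows little about the size of a change.

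Genes that build, export, cut, bind or cross-link collagen were described from lists of 56 genes, of which 50 were in the table. In all 9 of the 50 rose and 3 fell, or 18% and 6%, against the 10.5% and 5.91% of all genes given above. With the block 16 were higher and 8 lower, or 48%, against 18.2% and 13.9% of all genes, or 32.1% in either direction.

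Of the 13 genes for hydroxylases and glycosyltransferases, which modify the chains in the endoplasmic reticulum, 4 rose and none fell. P4ha2, a catalytic subunit of the prolyl 4-hydroxylase that makes the helix stable, rose most. It read 8.12, 8.04, 8.11 and 8.12 in control samples and 8.53, 8.53, 8.55 and 8.68 with GRHL2, a difference of 0.47 ± 0.049 (standard error) with an adjusted p of 0.000329 in limma. P4ha1, the other such subunit, read 8.70, 8.57, 8.82 and 8.85 against 8.94, 8.86, 9.11 and 9.12, a difference of 0.28 with an adjusted p of 0.0411. Both enzyme subunits were higher in all GRHL2 samples than in any control sample. The call of P4ha2 held with each sample left out. That of P4ha1 held only without control replicate 4 or GRHL2 replicate 2, and the adjusted p was up to 0.105 otherwise. The other rises in this list were Crtap, a partner of prolyl 3-hydroxylase, by 0.20 (adjusted p 0.0211) and P3h3, a member of the prolyl 3-hydroxylase family, by 0.16 (adjusted p 0.0176); both are named after their values were seen, and both calls were lost without control replicate 1 or GRHL2 replicate 1 (adjusted p at most 0.0563) and with replicates 3 and 4 averaged (0.0558 for Crtap and 0.0736 for P3h3). With the block Colgalt1 and Colgalt2, which attach galactose to collagen, were higher too (adjusted p 0.0368 and 0.0173, against 0.317 and 0.0855 without it).

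Among 9 genes for chaperones and export none rose and 1 fell. Sec23a, a coat protein of the vesicles that carry procollagen out of the endoplasmic reticulum, read 10.29, 10.35, 10.19 and 10.20 in control samples and 10.06, 10.06, 9.99 and 10.04 with GRHL2. The groups did not overlap, and the difference was -0.22 ± 0.050 (standard error) with an adjusted p of 0.0149, which was 0.0503 with replicates 3 and 4 averaged. With the block Sec24d was lower (adjusted p 0.163, and 0.0248 with the block) and Fkbp14 higher (0.0603, and 0.0227 with the block).

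The 7 proteinases and enhancers that trim procollagen held 2 rises and 1 fall. Bmp1, the proteinase that removes the C-terminal propeptide of fibrillar procollagens, read 8.56, 8.59, 8.60 and 8.66 in control samples and 8.94, 8.89, 8.94 and 8.90 with GRHL2. All GRHL2 samples were above all controls, with a difference of 0.31 ± 0.043 (standard error) and an adjusted p of 0.00129. Adamts2, which removes the N-terminal propeptide, rose by 0.09 (adjusted p 0.00983) and Tll2, a relative of Bmp1, fell by 0.12 (adjusted p 0.0187). Both lie low, with values of 0.47 to 0.61 and 0.69 to 0.91, and Tll2 was not called under the equal sum (adjusted p 0.0539). With the block Pcolce2, an enhancer of the C-proteinase, was lower (adjusted p 0.173, and 0.00649 with the block) and Adamts3, another N-proteinase, was higher (0.159, and 0.0287 with the block).

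Of the 6 cross-linking enzymes Lox was called, at -0.92 to -0.89 in control and -0.88 to -0.84 in GRHL2 samples. Its rise of 0.03 had an adjusted p of 0.0478. That call held only without GRHL2 replicate 4 and was lost without each of the other 7 samples, with an adjusted p of up to 0.118. The well-expressed Loxl4 was called, as lower, only with the block (adjusted p 0.326, and 0.0156 with the block).

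Of the 9 collagen-binding receptors 1 rose and 1 fell. Itga1, the alpha subunit of a collagen-binding integrin, read 4.30, 4.55, 4.45 and 4.51 in control samples and 4.65, 4.68, 4.67 and 4.71 with GRHL2. The GRHL2 values were closer together and all above the controls, with a difference of 0.22 ± 0.052 (standard error) and an adjusted p of 0.0169, which was 0.0663 with replicates 3 and 4 averaged. Mrc2, a receptor that takes up collagen for degradation, read 5.93, 6.18, 6.02 and 6.08 against 5.77, 6.00, 5.59 and 5.74. Its groups overlapped, and its difference of -0.28 had an adjusted p of 0.0497. The call was kept only without GRHL2 replicate 2, the adjusted p without each of the other samples being up to 0.121. It was not called under the equal upper quartile (adjusted p 0.0531) or the equal sum (adjusted p 0.0578). With the block Ddr1, a collagen-activated kinase (adjusted p 0.139, and 0.00680 with the block), and Itgb1, the partner subunit of Itga1 (0.342, and 0.0144 with the block), were higher. Itga10, the alpha subunit of another collagen-binding integrin, was then lower (0.111, and just under the threshold with the block).

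Of the 6 proteoglycans and matrix partners Agrn rose. This proteoglycan of basement membranes read 10.49, 10.49, 10.63 and 10.71 in control samples and 10.81, 10.67, 10.99 and 10.98 with GRHL2, with an overlap between control replicate 4 and GRHL2 replicate 2. Its difference of 0.28 ± 0.081 (standard error) had an adjusted p of 0.0404, and the call was lost in 6 of the 8 fits with 1 sample left out (adjusted p up to 0.113), being kept only without control replicate 4 or GRHL2 replicate 2. With the block Sparc, a collagen-binding matrix protein, was lower (adjusted p 0.0617, and 0.0134 with the block) and Nid2, a linker of basement membranes, was higher (adjusted p 0.0600, and 0.0170 with the block).

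**Figure D5:**
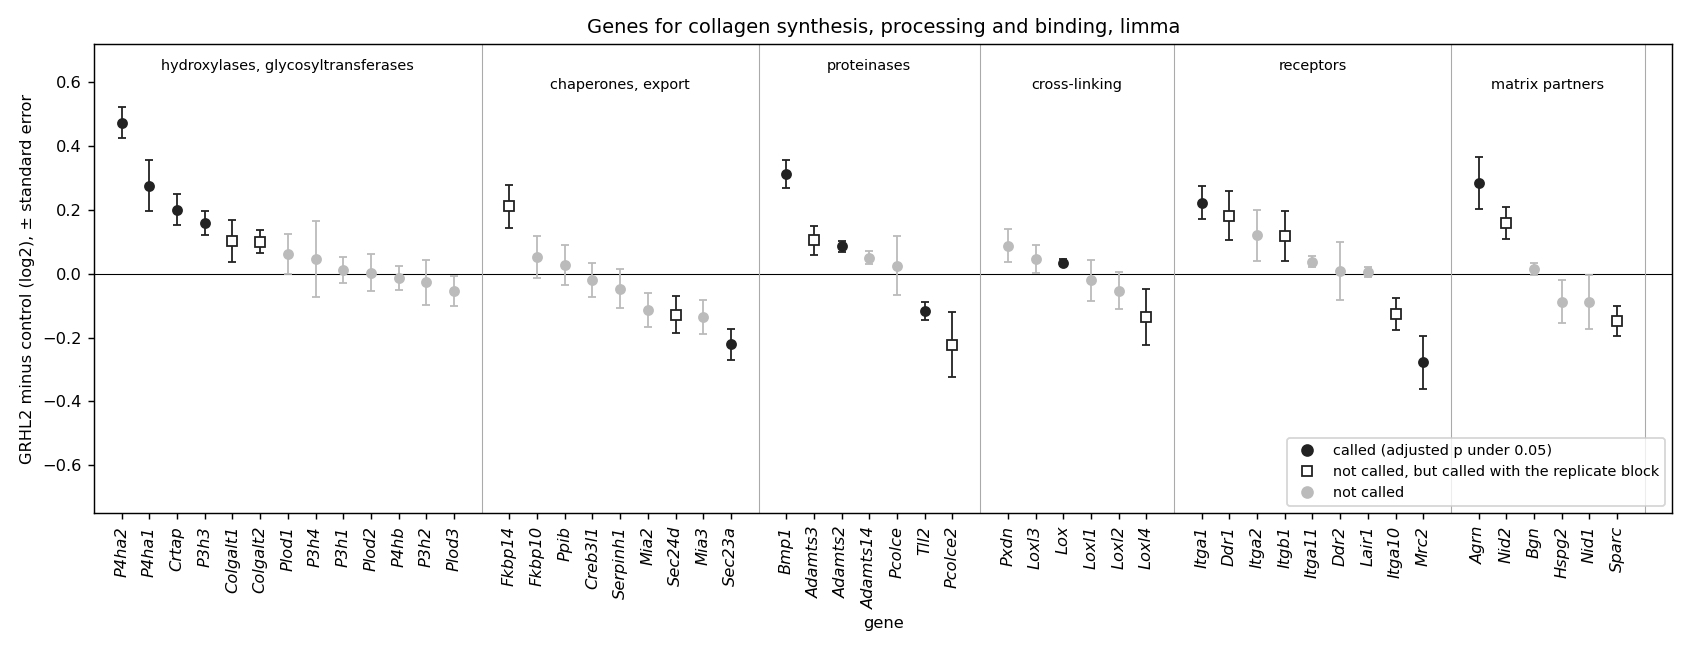
Difference between group means (GRHL2 minus control, log2) with its limma standard error for the 50 genes of collagen synthesis, processing and binding, in 6 lists. Black points are the 12 called genes, open squares those called once the replicate block was added and grey points the rest; P4ha2 stands highest at 0.47 and Mrc2 lowest at -0.28.

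Markers of other cell types were read beside these values. Of 10 hepatoblast and biliary markers all were in the table, from 5.22 for Alb to 15.36 for Krt8, with a log2 of their sum of 16.68 to 16.87 in control and 16.90 to 17.02 in GRHL2 samples, and with Krt7 higher and Afp lower with GRHL2. Of 10 mesenchymal and stellate cell markers 7 were in the table, at means between -0.40 and 3.49, while Lrat, Dcn and Lum were not. Pdgfrb and Reln of this list rose by 0.11 each (adjusted p 0.00886 and 0.0164). The summed linear level of the 7 markers ranged from 30.0 to 34.0 in control and from 30.7 to 31.7 in GRHL2 samples. No endothelial or haematopoietic marker was called without the block, and with it Kdr, Tek and Cd68 were higher (adjusted p 0.0411, 0.0234 and 0.0205). The sums of these lists ran from 24.4 to 24.9 and 95.7 to 108 in control and from 24.0 to 26.0 and 108 to 113 in GRHL2 samples. The haematopoietic sum was mostly Cd68, which read 6.08 in control and 6.25 in GRHL2 samples on average (adjusted p 0.0559). The part of any other cell type in the collagen values was not tested, and in bulk samples fewer cells of a type and less RNA per cell cannot be told apart.

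The windows before the starts of the collagen genes were searched for short motifs on both strands, 250 bases for each RefSeq start. Entries were found for 28 of the 36 genes, with 30 windows in all, of which 10 overlap an exon of the same gene in GENCODE, and the share over all 32851 windows is given beside each. Col2a1, which changed most, and Col12a1, which fell, had no entry and were not searched. The same holds for Col1a1, Col4a3, Col9a3, Col14a1, Col22a1 and Col26a1. The GC box GGGCGG was found in 18 collagen windows, or 60%, against 32.7% of all windows. CCAAT was found in 9, or 30%, against 33.8%, and TATAAA in 4, or 13.3%, against 12.4%. Collagen windows were not matched to all windows by their share of G and C, which had a median of 52.4% over all windows. Bases in exons were searched too. The GC boxes of Col4a5, Col9a2 and a Col6a2 window lie in exon bases of the gene, and Col6a2 was counted for each of its starts. AACNNGTT, the core of the motif that grainyhead factors are known to bind, was found in 1 collagen window, that of Col28a1, or 3.33% against 3.64%. Its form AACCGGTT was in none, against 0.116%. Col28a1 was not called, with a mean of 0.91 and an adjusted p of 0.974.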

How the data were processed

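RNA-seq of 8 BMEL samples, 4 per group, was analysed from 1 table of 18671 genes. The table's name says FPKM, but the values the authors deposited are log2 values: 4.81% lie below 0 and the range is -2.85 to 18.01. Per the methods of the study, the authors aligned reads to mm10, counted them on exons without strand, removed genes with fewer than 10 reads in all, and scaled DESeq2's rlog values by mean transcript length. Those methods open with public data, and that they cover these samples is an assumption. The submitters' processing notes name HISAT2 2.2.1, HTSeq 0.9.1 and DESeq2 1.40.2. Read totals cannot be had from such values, so depth is unknown and no counting interval is given.

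Groups and replicate numbers came from the sample titles, and 0 columns belonged to other samples. The 2 groups were compared with limma 3.58.1 in R 4.3.3 (empirical Bayes, variance trend on the mean, Benjamini-Hochberg adjustment over all genes, adjusted p under 0.05), checked on simulated data. Errors of differences are limma's standard errors. Samples with the same number deviated together, with correlations of 0.474, 0.565, 0.549 and 0.645 for numbers 1 to 4, each above that with any other number (at most 0.344, 0.436, 0.500 and 0.602), so the number was taken as a pairing and the blocked value is given where it changed a call. Where replicates are not separate cultures, p-values measure only the spread between these samples.

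Members and lists were chosen with earlier results of these data known. Named were the called chains, in each class the 3 chains with the highest mean and the uncalled chain with the largest difference, neighbouring chains, chains called with the block alone (added after their values were seen), of each other list the 2 largest rises and falls among called genes, and Grhl2. Positions and lengths are those of GENCODE M21 on GRCm38 (lengths for 18428 genes), and upstream windows are RefSeq's on GRCm38.p6, shown without bases in an exon of the same gene. The read-scale level is the mean value plus log2 of the mean transcript length in kb, and genes of similar level lie within 0.25. Alternatives were the replicate block, scaling to an equal upper quartile or equal sum, no variance trend, a minimum mean of 3, each sample left out, replicates 3 and 4 averaged, and a test beyond 0.2.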

Additional observations from a re-analysis of the deposited data

Results flagged for a closer look

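In 4 of 78 groups of 4 samples examined, a sample stood apart from the rest of its group, where 1 in 20 would be 4. How often the rule flags a group by chance was not tested, and 3 of the 4 flags fell on control replicate 2. Control replicate 2 was the high sample for Col2a1 with 4.45, where the other controls read 4.34 to 4.35, and every GRHL2 sample was above it. It was also high for Col14a1 with -0.58 and low for P4ha2 with 8.04. GRHL2 replicate 4 was the high sample for P4ha2 with 8.68, where the others read 8.53 to 8.55.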

How the results depend on the processing

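Depth is unknown, and the rlog compresses the differences of low chains, so the lack of a call in them sets no limit on a change. The replicate block, which uses the pairing by number, raised the calls to 3396 higher and 2589 lower over all genes, 13 higher among the collagens, and 16 higher and 8 lower among the other collagen-pathway genes. It ended no call of a named gene.

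Equal upper quartiles gave 3064 higher genes over the table, 12 higher and 1 lower chains, and an equal sum gave 12 and 1 too, with 1 lower pathway gene. The higher chains added by the first were Col10a1, Col13a1, Col26a1, Col6a3 and Col6a5, those added by the second were Col10a1, Col24a1, Col26a1, Col6a3 and Col6a5, and both scalings lost Col11a2 and Col12a1. Without the variance trend, where 8.82% of all genes were higher and 6.20% lower, 1 chain and 1 pathway gene were lower, and Col23a1 (adjusted p 0.0562), Col6a4 (0.0660), Col11a2 (0.0639), Col12a1 (0.0692), P4ha1 (0.0547), Agrn (0.0572), Lox (0.276), Tll2 (0.0508) and Mrc2 (0.0729) lost their calls. With a mean of at least 3, which tests fewer genes (13399), 1154 genes, or 8.61%, and 4 chains were higher and 1 pathway gene was lower, Col11a2 (0.0510) and Mrc2 (0.0533) being lost. With replicates 3 and 4 averaged, which leaves fewer samples, 1328 genes, or 7.11%, were higher and 521, or 2.79%, lower, 4 chains were higher (Col16a1, Col18a1 and Col23a1 being lost) and 1 lower (Col11a2 and Col12a1 being lost), and 3 pathway genes were higher and 1 lower, with P4ha1 (adjusted p 0.104), Agrn (0.106), Lox (0.0977) and Mrc2 (0.161) among those lost. Beyond 0.2 the counts were 215 higher and 48 lower genes, 1 and 0 chains, and 1 and 0 pathway genes.

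With 1 sample left out, 1326 to 1848 genes were higher and 690 to 1036 lower, 5 to 7 chains higher and 1 to 2 lower, and 4 to 9 pathway genes higher and 2 to 3 lower. The lowest count of lower genes came without GRHL2 replicate 3. Among the genes named by rule 4 uncalled differences changed sign: Col4a6 ran from -0.007 (without GRHL2 replicate 1) to 0.043, Col7a1 from -0.032 (without GRHL2 replicate 2) to 0.192, Col6a1 from -0.124 to 0.017 (without control replicate 4) and Col6a2 from -0.028 to 0.015 (without control replicate 4). Col6a2 was also at 0.015 under equal upper quartiles and 0.016 at an equal sum. Differences of Col5a3, Col22a1 and Col28a1, within 0.03 of 0, and of uncalled pathway genes such as P4hb and Pcolce also crossed 0. The cause of these changes was not tested. Within replicates 1 and 2 and within replicates 3 and 4 no called difference turned, but sizes differed, as for Crtap (0.282 and 0.119), Col11a2 (-0.285 and -0.084), Mrc2 (-0.171 and -0.384), Col23a1 (0.055 and 0.133) and Col6a4 (0.111 and 0.047).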
